A study of Mus musculus with 24 samples.

Results

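The 10 genes described here belong to the mouse MHC class II system and were taken by symbol from a table of UMI counts that lists 55414 genes, 25030 of them with a count. They are the chain genes H2-Aa, H2-Ab1 and H2-Eb1, the invariant chain gene Cd74, the transactivator gene Ciita, the peptide exchange genes H2-DMa, H2-DMb1 and H2-DMb2, and the modulator genes H2-Oa and H2-Ob. All 10 had a count in each of the 24 libraries and passed the filter on low counts. The RNA came from splenic CD4+ CD25- conventional T cells (Tconv, labelled TE), which were enriched with magnetic beads by first removing cells other than CD4+ cells and then removing CD25+ cells. The mice were conplastic: both strains carried the C57BL/6J nuclear genome, with either its own mitochondrial DNA (mtDNA B6, labelled WT) or that of the NZB strain (mtDNA NZB). Resting cells and cells stimulated with beads carrying antibodies to CD3 and CD28 were measured for each haplotype, so that there were 4 groups of 6 libraries. For the stimulation of Tconv cells the methods give 72 h, and they name IL-2 as added with the beads. The labels give no age, sex, purity or animal for a library. Whether the resting cells were cultured is not stated.

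MHC class II molecules carry peptides from endocytosed proteins to the cell surface, where CD4+ T cells read them. H2-Aa and H2-Ab1 encode the alpha and beta chain of the I-A molecule, and H2-Eb1 encodes the beta chain of I-E. Cd74 encodes the invariant chain, which fills the groove of a new molecule until H2-DM exchanges its remnant for a peptide. H2-DO, made of H2-Oa and H2-Ob, restrains H2-DM and is known mainly from B cells. Ciita encodes the master activator of these promoters. B cells, dendritic cells and macrophages are the usual sources of class II RNA in spleen, whereas mouse T cells are not known for it.

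Promoters of class II genes share a layout known from textbooks, an X box that binds the RFX complex followed by a Y box that binds NF-Y. Promoter sequences from RefSeq (GRCm38.p6, 250 bases before to 50 after the start) were found for 7 of the 10 members. They are shown because class II genes are known for this common control, while the members described below differed in their values. The letters ATGATG, read here as part of the X box, were searched on both strands and occurred in 4 of these 7 members and in 11.2% of all 32851 promoters in the table. The letters GATTGG, the core of the Y box, occurred in all 7 members, in H2-DMa only in the second of its 2 listed promoters, and in 16.1% of all promoters. Both motifs were chosen after these promoters had been read, and a match describes letters and not a bound site. The capitals mark ATGATG in the first 4 lines and GATTGG in the other two.
H2-Eb1: ctaactagcaactgATGATGctggactcct
H2-DMb1: ttacctagtaactgATGATGctaggctgat
H2-DMb2: ttacctattaaccgATGATGctaggctaag
H2-Ob: ctgcctagcaacaaATGATGcaaagtcttc
H2-Aa: gacgtcatcacaagagaattttctGATTGG
H2-Oa: cccattatctcagagaactgctctGATTGG
These stretches lie upstream of the gene starts at chr17:34305769-34305798 for H2-Eb1, chr17:34153090-34153119 for H2-DMb1, chr17:34145119-34145148 for H2-DMb2, chr17:34238811-34238840 for H2-Ob, chr17:34287867-34287896 for H2-Aa and chr17:34092311-34092340 for H2-Oa. H2-Aa is read from the minus strand and the others from the plus strand. Between ATGATG and GATTGG lay 18 bases in H2-Eb1, 19 in H2-DMb1 and in H2-DMb2, and 16 in H2-Ob.

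Libraries held 51409 to 6449395 UMI counts, and resting mtDNA NZB replicate 2 alone had under 641467. In that library the members had between 4 and 107 UMI counts each, so its values of the lower members carry a large counting error. It is 1 of 3 libraries, with resting replicate 6 and activated replicate 6 of mtDNA NZB, that do not enter the group means of the study, and results over the other 21 libraries are given where a call or a count of calls differs. Il2ra, the CD25 gene known to rise on activation, rose by 4.68 on the log2 scale in mtDNA B6 and by 5.00 in mtDNA NZB cells, and Cd69, an early activation marker, fell by 3.73 and fell by 3.62. Of 8 T cell genes, Cd4 and Cd3e were at medians of 560 to 648 and 264 to 341 counts scaled to library size (CPM) in the 4 groups. Activation left neither of them changed at an adjusted p of 0.05 or less (edgeR). At that threshold 2 genes of this list, Cd3d and Cd2, were higher and 1, Cd5, was lower, in either haplotype. Their log2 fold changes in mtDNA B6 and mtDNA NZB cells were 0.58 and 0.56 (Cd3d), 0.40 and 0.30 (Cd2), and -0.65 and -0.58 (Cd5). RNA of other cells was present: the summed CPM of 15 B cell genes lay between 1158 and 17649, and that of 8 monocyte and macrophage genes between 10.8 and 2870. H2-Ea, the alpha chain partner of H2-Eb1 that C57BL/6 mice do not transcribe, had 1 UMI count over all 24 libraries.

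The members together made up 0.116% to 1.18% of the UMI counts of a library. Cd74 held a median of 38.9% of the members' sum, H2-Aa 20.2%, H2-Ab1 19.1% and H2-Eb1 11.4%. H2-DMa held 3.66%, and each of the other 5 held 1.13% to 1.56%. Since UMI counts of a 3′ end number molecules and not fragments, these shares were not divided by gene length. The summed CPM of the members ran from 2981 over a median of 5420 to 10297 in resting mtDNA B6 cells and from 4087 over 4700 to 7106 after activation. The sum in mtDNA NZB cells ran from 3934 over 5545 to 12535 at rest and from 1141 over 4709 to 8036 after activation. The 4 ranges overlapped, and in activated mtDNA NZB cells replicates 1 and 2 were lowest of all 24 libraries, with 1189 and 1141 CPM. The same 2 libraries had the lowest Cd79a plus Ms4a1 RNA of all 24, at 15.8 and 12.7 CPM. In bulk RNA, fewer cells of a type and less RNA per cell cannot be told apart.

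**Figure D1:**
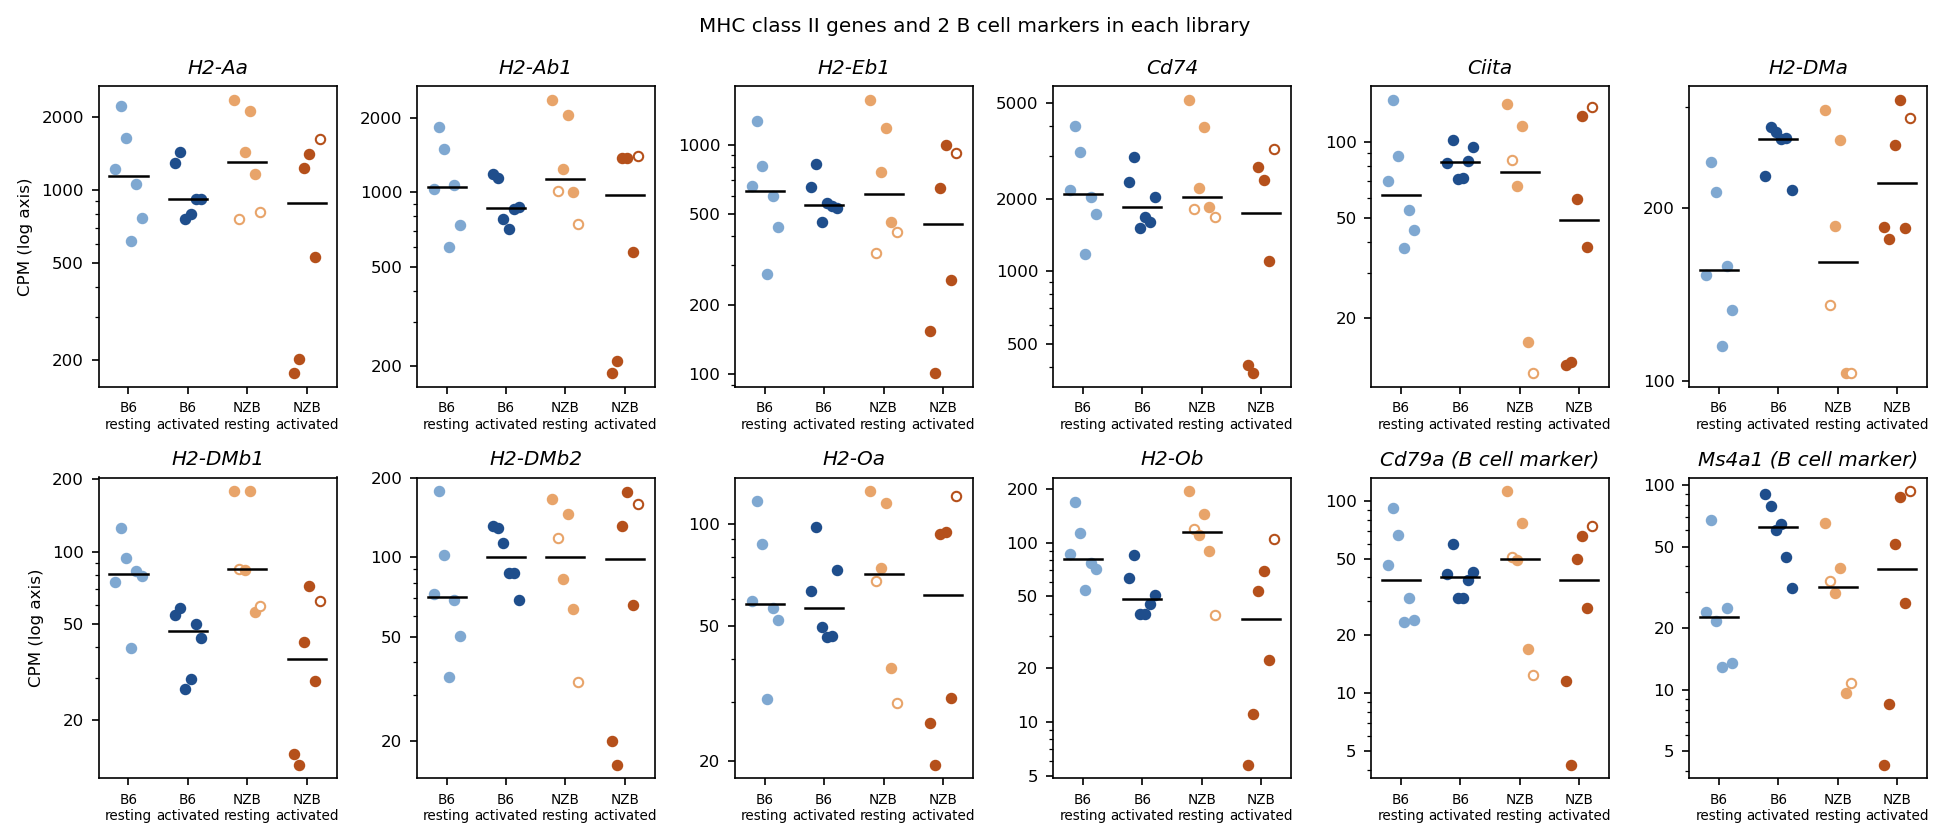
CPM (log axis) of the 10 MHC class II genes and of the B cell markers Cd79a and Ms4a1 in each of 24 libraries, by group. Each point is a library, open points are the 3 libraries outside the study's group means, and bars are group medians; in every panel the ranges of resting and activated cells overlap.

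The first comparison asks whether class II RNA differed between activated and resting cells. In mtDNA B6 cells 1 member rose and 1 fell at an adjusted p of 0.05 or less (edgeR's quasi-likelihood test, Benjamini-Hochberg adjustment over 10566 genes). Among all genes tested, 22.4% rose and 24.5% fell, so that 1 of 10 in each direction was not more than the background. In mtDNA NZB cells 0 members rose and 2 fell, against 25.2% and 28.4% of all genes. The median log2 fold change of the 10 members was -0.21 in mtDNA B6 and -0.68 in mtDNA NZB cells, beside -0.03 and -0.06 over all genes. No member had resting and activated libraries that stood apart without overlap, whereas 31.8% of genes did in mtDNA B6 and 18.9% in mtDNA NZB cells.

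Among the chain genes, H2-Aa had 618 to 2215 CPM with a median of 1141 in resting and 760 to 1432 with a median of 922 in activated mtDNA B6 cells. Resting mtDNA NZB cells had 762 to 2356 CPM with a median of 1301, and activated ones 177 to 1628 with a median of 882. The activated range lay inside the resting range in mtDNA B6 cells and reached below it in mtDNA NZB cells. The log2 fold change was -0.30 (SE 0.42, adjusted p = 0.59, edgeR) in mtDNA B6 and -0.76 (SE 0.43, adjusted p = 0.14) in mtDNA NZB cells. H2-Ab1, H2-Eb1 and Cd74 gave values near these, from -0.29 to -0.18 in mtDNA B6 and from -0.73 to -0.65 in mtDNA NZB cells, and none passed the test. Over the 21 libraries all 4 of these genes fell in mtDNA NZB cells, H2-Aa by 1.31, H2-Ab1 by 1.15, H2-Eb1 by 1.19 and Cd74 by 1.23 on the log2 scale (edgeR, adjusted p from 0.0201 to 0.0440). With them 6 of 10 members fell in mtDNA NZB cells, against 28.7% of all genes. No such gene was called in mtDNA B6 cells over the 21 libraries. The difference therefore rests on the 3 libraries left out, of which activated replicate 6 had the highest summed CPM of its group and resting replicate 6 the lowest of its own.

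Ciita, the activator of the other members, had 38.0 to 147 CPM with a median of 61.8 in resting and 71.4 to 102 with a median of 83.2 in activated mtDNA B6 cells. The range in mtDNA NZB cells was 12.0 to 142 CPM at rest and 12.9 to 138 after activation. The groups overlapped throughout, and the log2 fold changes were 0.20 (SE 0.49, edgeR, adjusted p = 0.77) and -0.09 (SE 0.52, adjusted p = 0.91). Its last 1000 bases overlap Dexi on the other strand, and since the counting is not stated to use strand, their reads cannot be told apart.

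The peptide exchange genes did not move as one. H2-DMa, the alpha chain of H2-DM, had 115 to 241 CPM with a median of 156 in resting and 215 to 277 with a median of 264 in activated mtDNA B6 cells. It rose by 0.58 on the log2 scale (SE 0.23, edgeR, adjusted p = 0.0363), with 4 of 6 activated libraries above every resting one. With 103 to 297 CPM at rest and 177 to 309 after activation, mtDNA NZB cells gave a log2 fold change of 0.32 (SE 0.23, adjusted p = 0.25).

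H2-DMb1, a beta chain of H2-DM, had 39.9 to 125 CPM with a median of 81.1 in resting and 26.8 to 58.1 with a median of 46.9 in activated mtDNA B6 cells. Its range in mtDNA NZB cells was 55.9 to 178 CPM with a median of 84.5 at rest and 13.0 to 71.9 with a median of 35.7 after activation. It fell by 0.92 on the log2 scale (SE 0.35, edgeR, adjusted p = 0.0336) in mtDNA B6 and by 1.45 (SE 0.37, adjusted p = 0.0017) in mtDNA NZB cells. The ranges overlapped in both haplotypes. H2-DMb2, the other beta chain gene, had medians of 70.7 and 100 CPM in resting and activated mtDNA B6 cells and of 101 and 98.4 CPM in mtDNA NZB cells. Its log2 fold changes were 0.28 (SE 0.44, edgeR, adjusted p = 0.62) and -0.03 (SE 0.46, adjusted p = 0.96).

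The calls of H2-DMa and H2-DMb1 in mtDNA B6 cells were close to the threshold. DESeq2 with the study's settings gave an adjusted p of 0.0542 for H2-DMa and 0.0541 for H2-DMb1, and called 0 members in this comparison. Of 25030 genes it called 2140 higher and 2674 lower. At an unadjusted p under 0.05 it had 2 members and 6563 genes. Both calls were also lost in the second count table (edgeR, adjusted p = 0.0763 and 0.0725) and with the library set as a term (adjusted p = 0.104 and 0.143). Library sets are 3 sets of 8 libraries that differ in reads per UMI, and set 1 held 5 of 6 activated and 0 of 6 resting mtDNA B6 libraries, so that set and state are largely confounded there. The call of H2-DMa was lost when any of 8 libraries was left out (mtDNA B6 activated replicates 2 to 5 and resting replicates 1, 4, 5 and 6), and that of H2-DMb1 with any of 5 (activated 3 and 4, resting 2, 3 and 6). The fall of H2-DMb1 in mtDNA NZB cells kept its call whichever library was left out, with log2 fold changes from -1.68 to -1.22.

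Of the modulator genes, H2-Ob, the beta chain of H2-DO, had 54.4 to 169 CPM with a median of 81.4 in resting and 39.7 to 85.4 with a median of 48.1 in activated mtDNA B6 cells. Its range in mtDNA NZB cells was 39.3 to 194 CPM with a median of 114 at rest and 5.75 to 105 with a median of 37.7 after activation. It fell by 1.29 on the log2 scale in mtDNA NZB cells (SE 0.43, edgeR, adjusted p = 0.0146). That call was lost without resting replicate 1 (adjusted p = 0.0559), the library with the highest class II RNA. In mtDNA B6 cells the log2 fold change was -0.81 (SE 0.42, adjusted p = 0.11). H2-Oa, the alpha chain, had medians of 58.0 and 56.6 CPM in resting and activated mtDNA B6 cells and of 71.0 and 62.0 CPM in mtDNA NZB cells, with log2 fold changes of -0.10 (SE 0.39, edgeR, adjusted p = 0.86) and -0.21 (SE 0.41, adjusted p = 0.70). An antisense RNA, BC051537, overlaps the end of H2-Oa.

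Haplotypes were compared within each state. At rest 0 of 10 members differed between mtDNA NZB and mtDNA B6 cells, with log2 differences (NZB minus B6) from -0.04 to 0.42 (SE 0.23 to 0.52), against 1.9% of genes higher and 0.861% lower in mtDNA NZB cells (edgeR). After activation 0 members differed, with log2 differences from -0.32 to 0.08 (SE 0.23 to 0.50), and 0% of genes passed in either direction. The difference of the activation response between haplotypes was called for 0 members and 0% of genes, with all 10 values negative, from -0.53 to -0.11 (SE 0.32 to 0.72), and a median of -0.45. That median ran from -0.69 to -0.19 when single libraries were left out, and was smallest in size without resting mtDNA NZB replicate 1 and largest without activated mtDNA NZB replicate 6. The 15 B cell genes had a median of -0.46 for the same difference over 24 libraries. The members varied together across libraries, so their 10 signs are not separate observations. Over the 21 libraries 0 members were called in any of these 3 comparisons, and the members' median was 0.49 at rest, where it was 0.24 over all 24, -0.38 after activation, where it was -0.15, and -0.91 for the difference of the response, for which 95 genes were then called higher and 18 lower. At an unadjusted p under 0.05 the number of members was 0 in each of these comparisons, as it was with DESeq2. The number of genes in edgeR was 2196 at rest, 327 after activation and 1512 for the difference of the response, of 10566. Over the 21 libraries 1 member (H2-Ob) reached this for the difference of the response, beside 2022 of 10826 genes. Standard errors of this size leave room for differences that these libraries could not show.

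**Figure D2:**
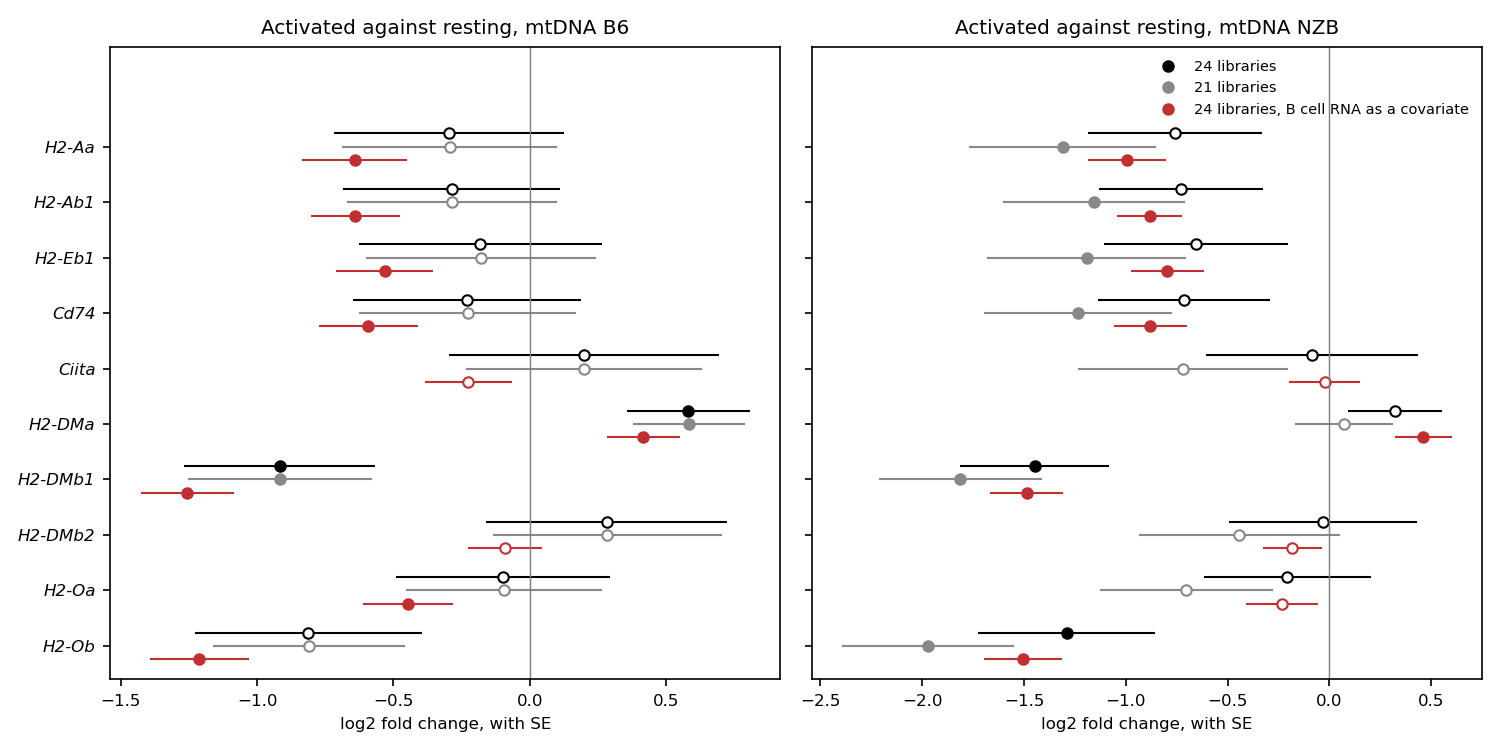
Log2 fold change of each MHC class II gene on activation, with its SE as the horizontal line, in mtDNA B6 (left) and mtDNA NZB cells (right). Black is the fit over 24 libraries, grey over 21 libraries and red over 24 libraries with B cell RNA as a covariate, and filled points have an adjusted p of 0.05 or less; H2-DMb1 lies left of 0 and filled in all 6 fits, and H2-DMa lies right of 0 in all 6.

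Because B cells are a main source of class II RNA, the members were set beside the summed CPM of Cd79a, a subunit of the B cell receptor complex, and Ms4a1, which encodes CD20. That sum ran from 36.4 over a median of 63.3 to 160 CPM in resting and from 74.1 over 93.7 to 139 CPM in activated mtDNA B6 cells. For mtDNA NZB cells the sum ran from 23.3 over 81.6 to 178 CPM at rest and from 12.7 over 77.8 to 167 CPM after activation. It rests on few molecules in resting replicate 2 (51409 UMI counts) and activated replicate 1 (641467) of mtDNA NZB, and carries a large counting error there. The groups overlapped. Of the 15 genes of the B cell list 0 rose and 2 fell (Cr2 and Ighm) in mtDNA B6 cells, against 22.4% and 24.5% of all genes. In mtDNA NZB cells 0 rose and 3 fell (Cr2, Ighm and Blk), against 25.2% and 28.4%. The median log2 fold change of the list was -0.10 and -0.54, and in mtDNA NZB cells 12 of its 15 genes had a negative value.

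Within groups the members followed this B cell RNA closely. After each value was taken as its difference from the group mean of log2 CPM, Pearson's r over 24 libraries was between 0.827 (H2-DMa) and 0.970 (H2-DMb2), with a median of 0.925. All 10 members passed (two-sided permutation test of libraries within groups with 100000 resamples, adjusted p from 0.0028 to 0.0052 over 10564 genes), against 1.22% of genes with a positive r. The median r over all genes was -0.05. Spearman's rho was 0.857 to 0.964, and without the 2 libraries farthest from the median, activated mtDNA NZB replicates 1 and 2, r was 0.817 to 0.951; all 10 members passed in both. Within single groups the median r of the members was 0.957 in resting and 0.747 in activated mtDNA B6 cells, and 0.905 in resting and 0.985 in activated mtDNA NZB cells. The lowest values were those of Ciita (0.232) and H2-DMa (0.244) in activated mtDNA B6 cells, the group with the narrowest range of B cell RNA. Within the 3 library sets the median r was 0.910, 0.988 and 0.884.

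Genes outside the members with a mean of at least 10 CPM were ranked by how closely they followed the members' mean over 24 libraries. The measure was Pearson's r of log2 CPM without removal of group means, so differences between groups enter it. The closest genes included Fcrla, Cd79b, Cd79a, Fgd2, Cd72, Ly6d, Hvcn1, Siglecg and Ighd, at r from 0.965 to 0.928. Of these, 4 are on the B cell list: Fcrla, Cd79b, Cd79a and Ighd.

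**Figure D3:**
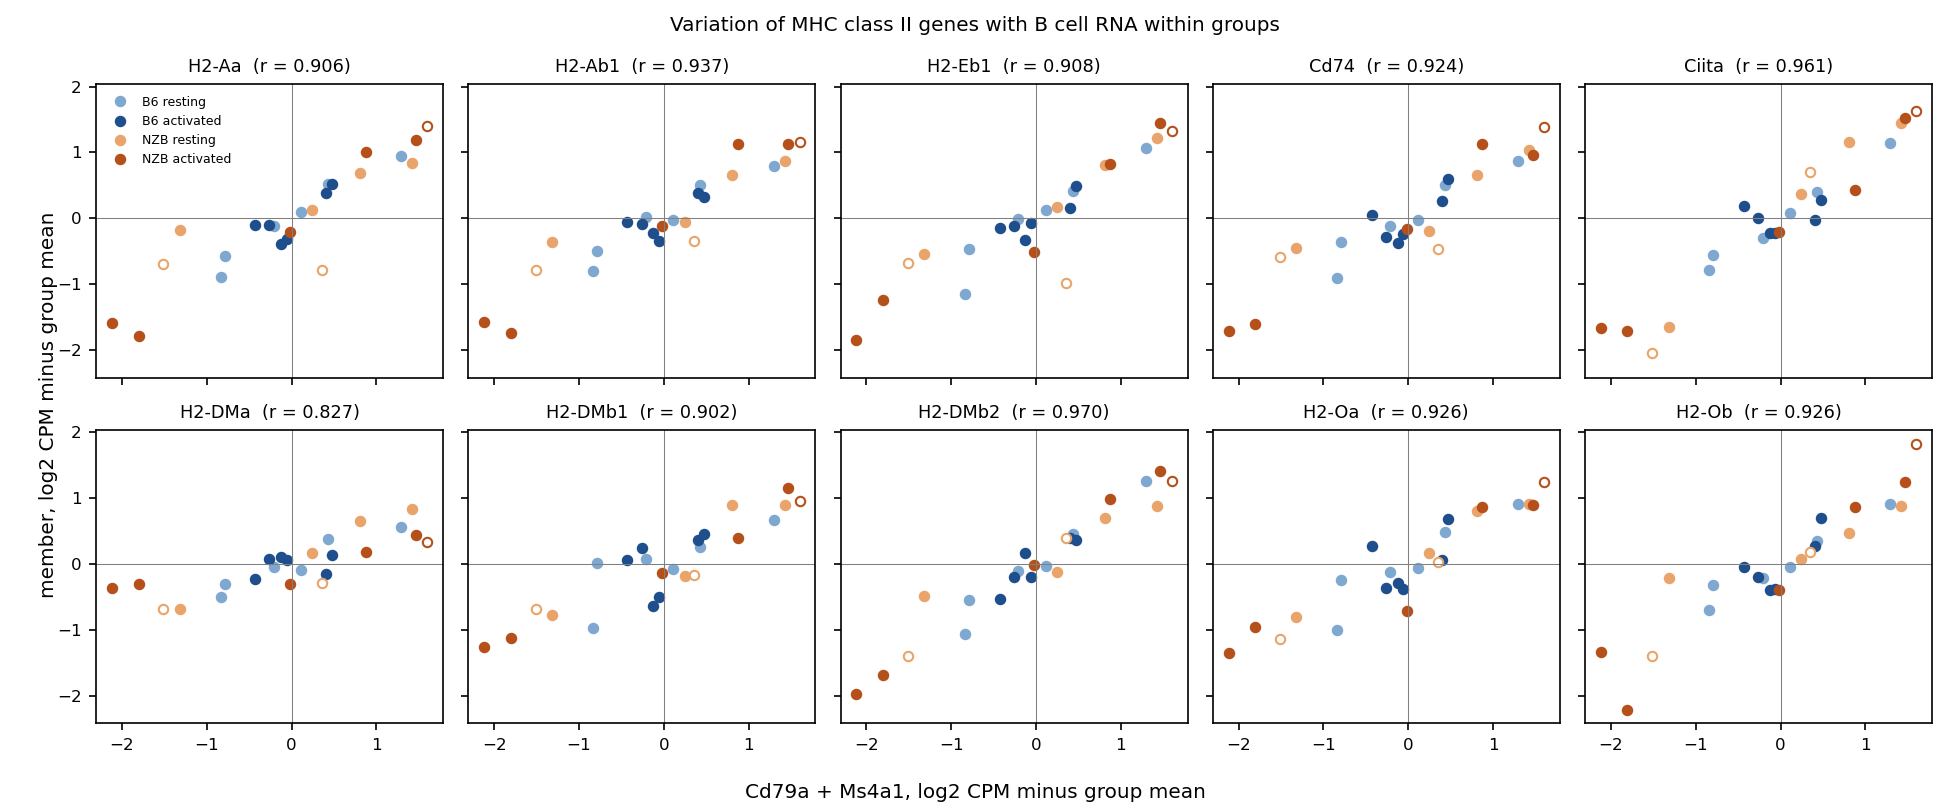
Deviation of each MHC class II gene from its group mean (log2 CPM, vertical) against the deviation of Cd79a plus Ms4a1 (horizontal) in 24 libraries, with Pearson's r over all of them. Colours are the 4 groups and open points the 3 libraries outside the study's group means; r runs from 0.827 in H2-DMa, the flattest panel, to 0.970 in H2-DMb2.

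When the log2 of this B cell RNA entered the edgeR fit as a covariate, its slope was positive and called for all 10 members, against 5.08% of genes with a positive call. The slope was 0.97 (SE 0.06) log2 units of Ciita per log2 unit of B cell RNA and 0.85 (SE 0.05) for H2-DMb2, and lowest for H2-DMa, at 0.33 (SE 0.05). H2-DMa thus kept more of its level than the other members in the libraries poorest in B cell RNA. In activated mtDNA NZB replicates 1 and 2 it had 186 and 177 CPM, above the median of resting cells, while Ciita had 12.9 and 13.4 CPM, and its share of the members' sum reached 15.6%.

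At equal B cell RNA more members differed between states. In mtDNA B6 cells 1 rose and 7 fell, against 24% and 26.2% of genes, and in mtDNA NZB cells 1 rose and 6 fell, against 26% and 29.7%. The gene that rose was H2-DMa in both, by 0.42 (SE 0.13, edgeR, adjusted p = 0.0116) and 0.46 (SE 0.14, adjusted p = 0.0068) on the log2 scale. H2-DMb1 fell by 1.26 (SE 0.17) and 1.49 (SE 0.18), and H2-Ob by 1.21 (SE 0.18) and 1.51 (SE 0.19). H2-Aa, H2-Ab1, H2-Eb1 and Cd74 fell by 0.53 to 0.64 in mtDNA B6 and by 0.80 to 0.99 in mtDNA NZB cells, and H2-Oa fell by 0.45 in mtDNA B6 cells. Ciita and H2-DMb2 were not called in either haplotype.

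These counts depended on the gene that stood for B cells, in alternatives chosen after the data had been seen. With Cd79a alone 3 members rose and 2 fell in mtDNA B6 cells, against 2535 and 2756 of 10565 genes. With Cd79b 1 rose and 5 fell, against 2515 and 2770 genes. With Ms4a1 0 rose and 9 fell, against 2402 and 2628 genes. Ms4a1 itself had a log2 fold change of 1.17 (SE 0.50, edgeR, adjusted p = 0.0588) on activation in mtDNA B6 cells, where Cd79a had -0.21 (SE 0.48, adjusted p = 0.75). H2-DMb1 and H2-Ob fell in both haplotypes with each of these 3 markers alone and with the pair. The chain genes and Cd74 were not called in mtDNA B6 cells with Cd79a alone.

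Ratios between chains of the same complex, and between the beta chain genes H2-DMb2 and H2-DMb1, are free of the scaling of a library. They were taken from UMI counts with 0.5 added and compared with exact two-sided permutation tests, 16 in all (4 ratios in 4 comparisons), whose smallest possible p is 0.0022. The ratios were chosen after the values had been seen, and each one's size also depends on how well either 3′ end is captured, so only changes between groups are read. H2-Aa to H2-Ab1, the chains of I-A, had medians of 1.07, 1.08, 1.06 and 0.957 in resting and activated mtDNA B6 and resting and activated mtDNA NZB cells. It was 1.00-fold in activated against resting mtDNA B6 cells and 0.963-fold in mtDNA NZB cells (exact permutation, adjusted p = 0.96 and 0.74). Over the 21 libraries the log2 ratio after activation differed by -0.20 (mtDNA NZB minus mtDNA B6, exact permutation, adjusted p = 0.0317), which was not called over 24 libraries or in the second count table.

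H2-Oa to H2-Ob, the chains of H2-DO, was 0.563 to 0.770 in the 6 resting and 1.00 to 1.44 in the 6 activated libraries of mtDNA B6 cells. The ratio in mtDNA NZB cells was 0.420 to 0.799 at rest and 1.16 to 4.11 after activation. The 4.11 was that of activated replicate 1, a library of 641467 UMI counts with H2-Ob at 5.75 CPM, so it carries a large counting error. The next highest value was 1.75. Activated and resting libraries did not overlap in either haplotype, and the ratio was 1.67-fold and 2.73-fold higher after activation (exact permutation test, n = 6 per group, adjusted p = 0.0087 in both). After activation the ratio was 1.49-fold higher in mtDNA NZB than in mtDNA B6 cells (exact permutation, adjusted p = 0.0594), and this passed over the 21 libraries and in the second count table (adjusted p = 0.0317 and 0.0231).

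H2-DMa to the sum of H2-DMb1 and H2-DMb2, the chains of H2-DM, was 0.794 to 1.53 at rest and 1.22 to 2.25 after activation in mtDNA B6 cells, and 0.680 to 1.12 and 1.25 to 5.99 in mtDNA NZB cells. The groups overlapped in mtDNA B6 cells only, and the ratio was 1.64-fold and 2.58-fold higher after activation (exact permutation, adjusted p = 0.0173 and 0.0087). The 2 highest values in mtDNA NZB cells, 5.29 and 5.99, were those of activated replicates 1 and 2, the libraries poorest in B cell RNA. The next highest was 1.95. The ratios were not adjusted for B cell RNA, and whether they followed it was not tested. H2-DMb2 to H2-DMb1 was 0.636 to 1.42 at rest and 1.57 to 4.21 after activation in mtDNA B6 cells, and 0.569 to 1.36 and 1.25 to 3.10 in mtDNA NZB cells. It was 2.52-fold and 2.20-fold higher after activation (exact permutation, adjusted p = 0.0087 and 0.0139). The beta chain genes are close copies: the last 1000 bases of their transcripts are 93.1% identical where aligned, and 36.7% of 50-base windows there in H2-DMb1 also occur in H2-DMb2. No such window lies in the last 300 bases of either, and reads from the shared part could be divided between them. All 6 of the activation differences in these 3 ratios kept their call whichever library was left out, over the 21 libraries and in the second count table.

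**Figure D4:**
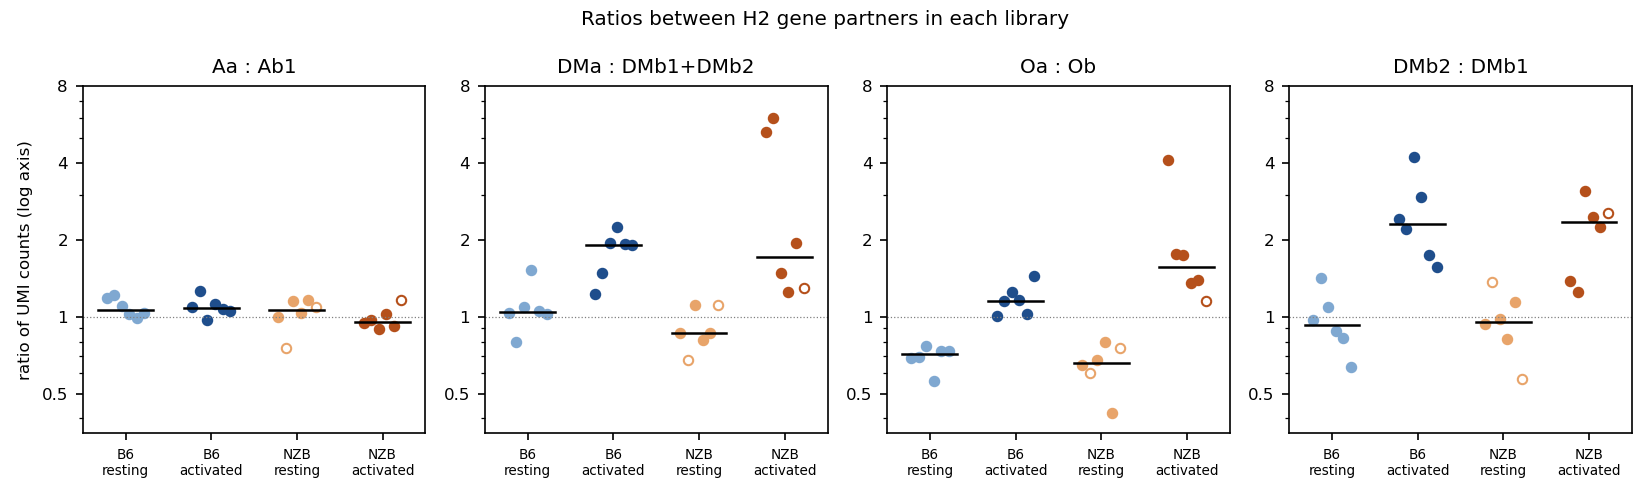
Ratio of UMI counts (log axis) between H2 genes in each of 24 libraries, by group. Bars are group medians, and open points are the 3 libraries outside the study's group means. Aa : Ab1 stays near 1 in all groups, whereas Oa : Ob is at most 0.799 in every resting and at least 1.00 in every activated library.

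The wider pathway was covered by 19 further genes, of which 17 passed the filter. In mtDNA B6 cells 2 of 17 rose and 5 fell, against 22.4% and 24.5% of all genes tested. In mtDNA NZB cells 3 of 17 rose and 3 fell, against 25.2% and 28.4%. These counts are not read as a response of the pathway. Ifi30, a thiol reductase of the antigen processing compartment, rose by 0.66 (SE 0.24) and 0.69 (SE 0.25) on the log2 scale in mtDNA B6 and mtDNA NZB cells. The proteases Ctsl and Ctsb fell, Ctsl by 2.08 (SE 0.35) and 2.73 (SE 0.37) and Ctsb by 1.14 (SE 0.21) and 1.06 (SE 0.24). Creb1, whose product binds the X2 box, fell by 0.79 (SE 0.21) and 1.08 (SE 0.23). Of the RFX genes, Rfxank fell in mtDNA B6 cells by 0.51 (SE 0.16), Ctss, which trims the invariant chain, fell there by 0.40 (SE 0.13), and Nfyb rose in mtDNA NZB cells by 0.52 (SE 0.15). Rfx5, Rfxap, Nfya, Nfyc and Irf1 were not called in either haplotype, and 0 of the 17 genes differed between haplotypes in either state, at an adjusted p of 0.05 or less in edgeR.

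Marker genes of monocytes, macrophages and dendritic cells, which are also known for class II RNA, were lower after activation. All 6 tested monocyte and macrophage genes and all 4 tested dendritic cell genes fell in both haplotypes, with median log2 fold changes of -3.81 and -4.27, and of -3.48 and -3.86. Among all genes tested, 24.5% fell in mtDNA B6 and 28.4% in mtDNA NZB cells. Lyz2 went from medians of 1290 and 701 CPM at rest to 11.1 and 25.8 CPM after activation in mtDNA B6 and mtDNA NZB cells. The summed CPM of the 7 dendritic cell genes was at most 55.1 at rest, with Xcr1 and Clec9a at a median of 3 UMI counts or fewer. The CD8 genes Cd8a and Cd8b1 rose in both haplotypes, Cd8a by 2.35 and 1.90 on the log2 scale. Whether these cells took part in the differences of the members was not tested.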

How the data were processed

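RNA of splenic Tconv cells was read in 24 libraries, 6 per haplotype and state, with bulk MARS-seq, a 3′ method with unique molecular identifiers (UMIs). Groups came from the sample labels. The authors trimmed reads with cutadapt, mapped them with STAR to the 3′ ends of genes (1000 bases, GRCm39, Ensembl 106) and counted them with HTSeq; tool versions and strand use are not given in the sources used here. They collapsed UMIs, corrected for saturation and deposited these whole-number counts, which are not scaled, and a second table of larger counts, used as an alternative. There, 1 column matched no sample and was not used. Counting only the 3′ end can divide reads between close paralogs or overlapping genes.

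Counts were scaled by TMM, filtered with filterByExpr (10566 genes left) and fitted for all 4 groups in edgeR 4.0.16 (R 4.3.3) with its quasi-likelihood test and Benjamini-Hochberg adjustment, called at an adjusted p of 0.05 or less with no fold limit. SE is the size of the log2 fold change over the square root of F. Correlations used log2 CPM with a prior count of 2. Exact permutation tests of ratios ran in scipy 1.17.1, and the permutation test of correlations was written with numpy 2.4.6. Scripts were tested on simulated data. Depth was 51409 to 6449395 UMI counts, and every pair of libraries in a group differed by more than counting noise (chi-square per degree of freedom at least 2.97). The labels do not name separate animals, so p-values measure the spread between these libraries, which may be technical in part. The 21 libraries are those that an earlier comparison matched to the study's group means. Genes named outside the members were from lists of textbook markers, the called pathway genes and the 10 genes most like the members. Members and lists were chosen with earlier results of these data known. Alternatives were DESeq2 1.42.0, size factors, filters, the second table, library sets, blocks, B cell covariates and leaving out libraries. Results of some listed genes are not reported here, while the counts and sums over the lists include them.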

Additional observations from a re-analysis of the deposited data

How the results depend on the processing

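The number of members called on activation was 2 in each haplotype. In mtDNA B6 cells it was 0 with DESeq2, with the library set as a term and in the second table, 1 with the stricter filter, 5 with Cd79a alone as a covariate, 6 with Cd79b, 8 with Cd79a plus Ms4a1 (24 or 21 libraries), and 9 with Ms4a1. In mtDNA NZB cells it was 6 over the 21 libraries and with Cd79b, 7 with Ms4a1 and with Cd79a plus Ms4a1 (24 or 21 libraries), and 8 with Cd79a. The cause of these shifts was not tested. Leaving out each library in turn gave 0 to 2 members in mtDNA B6 and 1 to 3 in mtDNA NZB cells, 0 in each comparison of haplotypes and 10 for the correlation. That count was 9 in the second table and 0 with the whole B cell list, in whose sum Ighm held a median of 84.9%, and 10 without Ighm. Of 2346 single values of members and ratios under other settings, 2248 kept their direction and side of the threshold, where 127 of 1706 values called in neither setting changed sign, 24 lost and 71 gained a call. Values turned with a call for Ciita in mtDNA B6 cells with Ms4a1 alone (-0.76), Ciita in mtDNA NZB cells with Cd79a alone (0.41) and H2-DMb2 in mtDNA B6 cells with Ms4a1 alone (-0.63).

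Replicate numbers did not pair the libraries: deviations of same-numbered libraries correlated at -0.22 to 0.32 over 9 pairs by the number in the description, with 3 over 0.1, and 4 of 12 pairs were over 0.1 by the number in the title. With the description's number as a replicate block 1 member was called in each haplotype, and with the title's number 2 in each.

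Depth limits resting mtDNA NZB replicate 2, where a member at 4 to 8 UMI counts cannot show a change of the sizes reported. In mtDNA NZB cells the count of called members moved with the 3 libraries outside the study's group means and with the marker chosen for B cells, and was 2 in the second table, with the other size factors and with either filter.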

Other observations

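Resting mtDNA NZB replicate 2 also had 898 CPM of Jchain, the joining chain gene of plasma cells, against a median of 16.4 CPM in its group. H2-Eb2, a further class II beta chain gene, had 65 to 102 UMI counts per group and log2 fold changes on activation of -0.72 (SE 0.47, edgeR, adjusted p = 0.22) and -0.57 (SE 0.49, adjusted p = 0.34) in mtDNA B6 and mtDNA NZB cells. H2-Eb1 was counted in every library although its alpha chain partner H2-Ea was at 0 in 23 of 24.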
